A study of Arabidopsis thaliana with 9 samples.

Results

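The genes described here build tetrapyrroles, the ring pigments that end in chlorophyll, heme, phytochromobilin and siroheme. The list holds 39 Arabidopsis loci, taken from the step of glutamyl-tRNA reductase through the magnesium, iron and siroheme branches, with the regulators GUN4 and FLU. A transcript was a member when its identifier, without the form number, was a listed locus. This gave 79 of the 55442 transcripts and 39 of the 34262 genes in the data.

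RNA-seq was made from shoots of wild type Arabidopsis of the accession Col-0, with 3 samples in each of 3 iron conditions. Every plant grew with iron for the first 14 days. Those of the +Fe group were then moved to fresh iron medium for 3 days and again for 24 h, whereas -Fe plants went through the same moves on medium without iron. Plants of the Fe resupply group spent the 3 days without iron and the last 24 h with iron.

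In chloroplasts, glutamate is turned into 5-aminolevulinic acid (ALA), and ALA into protoporphyrin IX, by a set of enzymes that all tetrapyrroles share. Magnesium chelatase sends protoporphyrin IX toward chlorophyll, and ferrochelatase sends it toward heme by inserting iron. Free intermediates of this pathway produce singlet oxygen in the light, and the pathway is known to be governed at ALA synthesis. Iron enters it as the metal of heme and siroheme and as a cofactor, as in the diiron cyclase CRD1.

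The values are mean levels per condition in CPM (counts scaled to a common library total), worked out from the pooled averages that the authors deposited for each pair of conditions. A gene's level is the sum of its annotated transcripts, and a fold or log2 ratio has 1 CPM added to both sides. No value per sample was used, so no difference below carries a replicate error or a test, and small differences cannot be told from the spread between plants. The 3 comparisons share their condition means and are not independent of each other. Whether the CPM came from reads or from length-scaled values is not stated, so levels are mainly compared between conditions. Genes are set beside each other only for the 5 CPM minimum, the check of tissue and the remark that a level is low. These uses, and the shares of forms within a gene, may depend on it. In whole shoots, fewer cells that express a gene and less RNA per cell cannot be told apart.

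A gene was compared when its mean over the 3 conditions was at least 5 CPM, which held for 36 of the 39 members and for 14031 of all genes. The 3 others were HEMA3, HEMB2, which was at 0 in every condition, and AT5G63290, a locus resembling the bacterial oxidase HemN, at 0.885 CPM in -Fe, 0.419 in +Fe and 0.436 in resupply. The samples looked like green shoots. The 5 photosynthesis markers lay between 4385 and 12482 CPM in every condition. Of 4 root epidermis markers, EXPA7 was at 0 and COBL9 at most 0.469 CPM, IRT1 was at 3.88 CPM in -Fe, 1.25 in +Fe and 1.13 in resupply, and FRO2 at 2.72, 0.0249 and 0. The part of any root RNA in the results was not tested. The iron labels were also checked. BHLH38, a transcription factor gene of the iron deficiency response, was at 147 CPM in -Fe against 6.32 in +Fe and 4.60 in resupply. BHLH39 and BHLH100, of the same response, were at 116 and 224 CPM in -Fe against 2.21 and 6.12 in +Fe. In resupply they were at 7.44 and 7.86 CPM, above +Fe, whereas BHLH38 was below it. FER1, which encodes the iron store ferritin, was at 12.8 CPM in -Fe against 106 in +Fe and 156 in resupply.

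Among the 36 compared members, the lowest -Fe levels relative to both other conditions were those of HEMA1, HEMA2 and PORB. HEMA1 and HEMA2 encode glutamyl-tRNA reductase, the enzyme that commits glutamate to ALA. PORB encodes a protochlorophyllide oxidoreductase, which needs light to make chlorophyllide. HEMA1 lies on chromosome 1 at 21623700 to 21626402 (minus strand), HEMA2 on chromosome 1 at 3236908 to 3239554 (minus strand) and PORB on chromosome 4 at 13725546 to 13727440 (plus strand), in the TAIR10.1 annotation of RefSeq. The sequences just before their annotated starts are shown because these genes share the pattern of low -Fe levels. They are chr1:21626403-21626652 and chr1:3239555-3239804 on the minus strand, and chr4:13725360-13725545 on the plus strand, each written 5′ to 3′ toward the gene. That of PORB stops where the neighbouring gene ends and holds 186 bases in place of 250. Capitals mark matches to the motifs described next.
HEMA1: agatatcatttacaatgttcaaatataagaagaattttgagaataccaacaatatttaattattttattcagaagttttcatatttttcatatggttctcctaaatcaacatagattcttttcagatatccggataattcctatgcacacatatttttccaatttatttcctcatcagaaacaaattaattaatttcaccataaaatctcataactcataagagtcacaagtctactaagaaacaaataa
HEMA2: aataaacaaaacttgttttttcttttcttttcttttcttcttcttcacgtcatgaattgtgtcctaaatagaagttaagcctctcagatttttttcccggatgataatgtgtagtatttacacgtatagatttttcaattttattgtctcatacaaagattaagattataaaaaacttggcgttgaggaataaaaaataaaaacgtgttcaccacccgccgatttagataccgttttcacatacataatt
PORB: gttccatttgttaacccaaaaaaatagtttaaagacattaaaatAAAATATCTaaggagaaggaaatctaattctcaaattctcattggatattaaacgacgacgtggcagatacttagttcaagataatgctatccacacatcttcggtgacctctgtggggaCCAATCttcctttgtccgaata

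Motifs were searched on both strands in the 250 bases before the start of each gene, and the 3 motifs do not overlap each other in these windows. CACGTG is the G-box core, CCAATC was described upstream of genes that GLK factors induce, and AAAATATCT is the evening element of clock-controlled genes. The PORB window held AAAATATCT at base -142 and CCAATC at bases -219 and -22, the first of these within the neighbouring gene. The windows of HEMA1 and HEMA2 held none of the 3 motifs. Among all 39 members, CACGTG was found in 6 windows (15.4%), CCAATC in 3 (7.69%) and AAAATATCT in 2 (5.13%), those of PORA and PORB. Over the windows of 27443 protein-coding genes the shares were 6.49%, 10.2% and 2.36%. Besides PORB, CCAATC was in the windows of GSA2 and GUN4, whose -Fe levels were 109% and 99.9% of +Fe. The windows of several other members, GUN4 among them, also overlap a neighbouring gene. The 6 members with a G-box were HEMB2, CAO, HEMD, FC2, HY2 and CRD1. HEMB2 could not be compared. None of the others was 1.5-fold lower in -Fe than in +Fe, where 5.39% of all compared genes were. At that share, none among so few says little. A match is only a run of letters, and no match says nothing of which factors act there.

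ALA synthesis held the members furthest from their +Fe level. HEMA1 was at 87.2 CPM in -Fe, against 378 CPM in +Fe and 449 CPM in resupply. Its -Fe level was thus 23.1% of that in +Fe, 4.30-fold lower (log2 ratio -2.10), and 5.11-fold lower than in resupply (log2 ratio -2.35). Counted from the lowest ratio, HEMA1 stood at place 31 of 14031 genes against +Fe and at place 9 against resupply. In resupply it was at 119% of its +Fe level.

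HEMA2, known for expression in roots and other non-photosynthetic tissue, was also lowest in -Fe, at a low level throughout. It was at 6.34 CPM in -Fe, against 17.1 CPM in +Fe and 16.9 CPM in resupply. This was 2.46-fold lower than in +Fe and 2.43-fold lower than in resupply, with places 99 and 85 from the lowest ratio. In resupply it was at 98.6% of +Fe. Its ratio depends on what is added to low levels, since with 5 CPM on both sides its log2 ratio to +Fe was -0.96, short of 2-fold. HEMA3, the remaining copy, was at 0.0105, 1.02 and 0.135 CPM, too low to compare.

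The next enzyme of ALA synthesis did not share this pattern. GSA1 and GSA2 encode glutamate semialdehyde aminotransferase. GSA1 was at 132 CPM in -Fe, 121 in +Fe and 112 in resupply, and GSA2 at 182, 166 and 178. FLU, which holds glutamyl-tRNA reductase back in the dark, was at 68.0, 64.7 and 61.0 CPM. These 3 genes had log2 ratios of 0.07 to 0.13 for -Fe against +Fe, where the 2 reductase genes had -2.10 and -1.30.

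**Figure D1:**
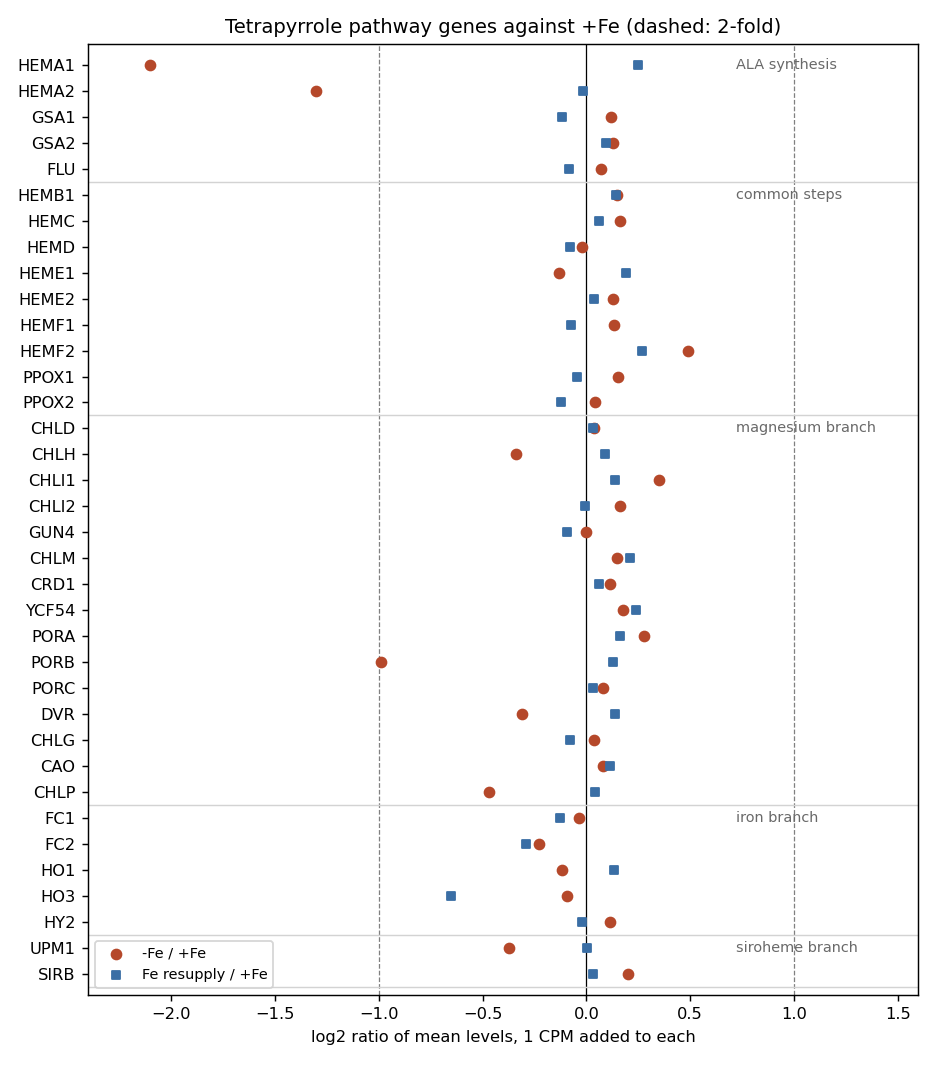
Log2 ratios of the mean level of each of the 36 compared members, with 1 CPM added to both sides, for -Fe against +Fe (circles) and Fe resupply against +Fe (squares), in pathway order. HEMA1, HEMA2 and PORB lie far to the left in -Fe and near 0 in resupply, and HO3 alone of the others lies beyond -0.5 in resupply (-0.65).

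Against a limit of 2-fold, the minimum change the study used, 2 of 36 members (HEMA1 and HEMA2) were lower in -Fe than in +Fe, where 1.62% of all compared genes were. The count was 1 with 5 CPM added or with a minimum mean of 20 CPM, both of which lost HEMA2. None was higher, where 1.3% of all genes were. Between -Fe and resupply, 3 members (HEMA1, HEMA2 and PORB) were at least 2-fold lower in -Fe, with 1.28% of all genes, and none was higher, with 1.82%. Between resupply and +Fe no member passed 2-fold in either direction, with 1.03% of all genes lower and 0.335% higher in resupply.

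A limit of 1.5-fold added PORB to the first comparison and left the rest of the pathway outside it. In -Fe against +Fe, 3 members (HEMA1, HEMA2 and PORB) were lower, with a background of 5.39%, and none was higher, with 4.72%. In -Fe against resupply the count was again 3 lower (background 4.98%) and none higher (background 7.04%). In resupply against +Fe only HO3 was lower (background 5.49%) and no member was higher (background 2.32%).

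**Figure D2:**
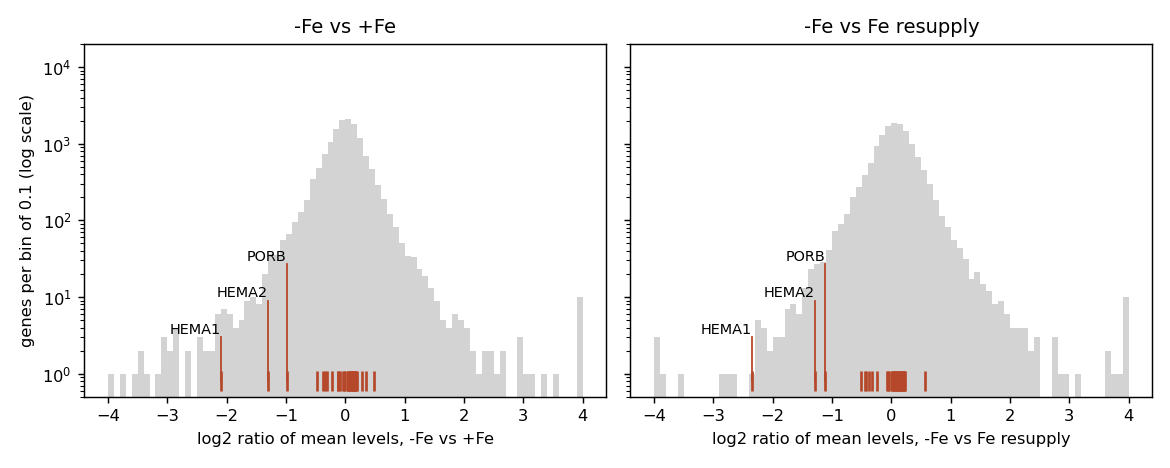
Number of compared genes in bins of 0.1 of the log2 ratio (grey, log axis, 14031 genes) for -Fe against +Fe (left) and -Fe against Fe resupply (right), with the 36 members as ticks. The outermost bins gather all genes beyond 4 in either direction. HEMA1, HEMA2 and PORB sit furthest to the left. The other members lie nearer the centre, from CHLP (-0.47) to HEMF2 (0.49) at left and from CHLP (-0.51) to HO3 (0.56) at right.

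Of the 11 genes of the common steps from ALA to protoporphyrin IX, none that could be compared was 1.5-fold from +Fe in -Fe. Over all compared genes 5.39% were lower and 4.72% higher by that limit, so none among so few says little. Of the 9 common-step genes that could be compared, 7 were above and 2 below their +Fe level in -Fe. Over all 14031 genes it was 7146 and 6885. The 9 had a median log2 ratio of 0.13 and a range of -0.13 to 0.49. HEMB1, the ALA dehydratase, was at 141 CPM in -Fe, 127 in +Fe and 140 in resupply. HEMC, the porphobilinogen deaminase that follows it, was at 274, 245 and 256 CPM. HEMD, the uroporphyrinogen III synthase, was at 35.8, 36.4 and 34.4 CPM. In these 3 genes -Fe was between 98.5% and 112% of +Fe.

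HEME1 and HEME2 encode uroporphyrinogen decarboxylase. HEME1 was lowest in -Fe, at 142 CPM against 155 in +Fe and 178 in resupply, and HEME2 was highest in -Fe, at 188 against 172 and 176. HEMF1 and HEMF2 are the copies of coproporphyrinogen oxidase. HEMF2 had the largest positive log2 ratio of all members against +Fe, 0.49, at 19.7 CPM in -Fe, 13.7 in +Fe and 16.8 in resupply, and HEMF1 was at 168, 153 and 145 CPM. The protoporphyrinogen oxidase PPOX1 was at 167, 150.3 and 146 CPM, and PPOX2 at 30.8, 29.9 and 27.3 CPM.

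The magnesium branch, with 15 members, held PORB and a group of smaller shortfalls in -Fe. PORB was at 339 CPM in -Fe, against 675 CPM in +Fe and 737 CPM in resupply. Its -Fe level was 1.985-fold lower than in +Fe, just short of the 2-fold limit, and 2.17-fold lower than in resupply, just past it. It stood at place 233 of 14031 against +Fe and at place 136 against resupply, and was at 109% of +Fe in resupply.

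The other oxidoreductases of the same step did not follow PORB. PORA, which serves dark-grown seedlings, was at 38.7 CPM in -Fe, 31.7 in +Fe and 35.6 in resupply, and PORC, the form of mature light-grown leaves, was at 184, 174 and 178 CPM. Their log2 ratios for -Fe against +Fe were 0.28 and 0.08, against -0.99 for PORB.

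Magnesium chelatase was uneven among its subunits. CHLH, which binds the porphyrin, was at 1726 CPM in -Fe, against 2186 CPM in +Fe and 2329 CPM in resupply, or 1.27-fold and 1.35-fold lower in -Fe. CHLI1, an ATPase subunit, was highest in -Fe, at 435 CPM against 340.2 in +Fe and 375 in resupply (log2 ratio 0.35 against +Fe). Its second copy CHLI2 was at 61.9, 55.3 and 55.0 CPM, and CHLD, the subunit that joins CHLI to CHLH, at 299.7, 292 and 299 CPM. GUN4, which binds the porphyrin and stimulates the chelatase, was at 379.9, 380.2 and 356 CPM, a ratio of 99.9% between -Fe and +Fe.

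Later steps of chlorophyll synthesis divided in the same way. CHLP, the geranylgeranyl reductase that prepares the phytyl tail of chlorophyll, was at 1337 CPM in -Fe, against 1852 CPM in +Fe and 1905 CPM in resupply, or 1.39-fold and 1.42-fold lower. DVR, the divinyl reductase, was at 64.0, 79.6 and 87.7 CPM, or 1.24-fold and 1.37-fold lower. Apart from PORB, the other genes of these later steps were not lower in -Fe than in +Fe. The methyltransferase CHLM was at 452, 409 and 474 CPM, the cyclase CRD1 at 2227, 2056 and 2145, and its partner YCF54 at 191, 169 and 200.04. The chlorophyll synthase CHLG was at 150.4, 147 and 139 CPM, and CAO, the oxygenase that makes chlorophyll b, at 369, 349 and 378. Over the 15 genes the median log2 ratio of -Fe to +Fe was 0.08. Of these, 10 were above 0 and 5 below, against 7146 and 6885 of all 14031 compared genes.

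No iron branch member was past 1.5-fold in -Fe against +Fe, where 5.39% of all compared genes were lower and 4.72% higher. At such shares, none among so few genes says little about the branch. Of its 5 genes, 4 were below their +Fe level in -Fe, where 6885 of all 14031 compared genes were. The log2 ratios of the 5 ran from -0.23 to 0.12. The ferrochelatase FC1, the copy used throughout the plant, was at 34.0 CPM in -Fe, 34.8 in +Fe and 31.8 in resupply. FC2, the ferrochelatase of green tissue, was at 70.7, 83.2 and 67.9 CPM, lowest in resupply. The heme oxygenase HO1, which opens the heme ring, was at 83.3, 90.3 and 99.2 CPM. HO3 was at 6.22, 6.70 and 3.89 CPM, lowest in resupply and close to the 5 CPM minimum. HY2, the phytochromobilin synthase that acts on the product of heme oxygenase, was at 12.6, 11.6 and 11.4 CPM.

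The siroheme branch has 2 genes here, which differed in direction. UPM1, the uroporphyrinogen III methyltransferase that opens the branch, was at 49.1 CPM in -Fe, 63.8 in +Fe and 64.0 in resupply, or 1.295-fold and 1.298-fold lower in -Fe. Most of its gap to +Fe lay in a minor form, AT5G40850.2, at 1.53, 12.5 and 0 CPM. The main form AT5G40850.1 was at 47.0, 50.6 and 57.5 CPM and alone was not 1.2-fold lower in -Fe than in +Fe. SIRB, the ferrochelatase that closes it, was at 24.2, 20.9 and 21.5 CPM, highest in -Fe.

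A group of 7 members was thus lower in -Fe by at least 1.2-fold than in both other conditions, a limit chosen after the values were seen. They were HEMA1, HEMA2, CHLH, PORB, DVR, CHLP and UPM1, or 19.4% of the 36, where 9.59% of all compared genes met the same limit. No member was higher in -Fe than in both by that much, where 10.9% of all genes were. In resupply all 7 were between 98.6% and 119% of their +Fe level. The limit itself required resupply to lie above -Fe. Members outside the group also lay in that range, such as HEMC at 104%, while others such as GSA1, at 92.2%, did not. The range therefore does not set the group apart. The pathway's other 29 compared members did not meet either limit. With no replicate values, the smaller of these differences, such as 1.24-fold for DVR, cannot be set against an error.

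**Figure D3:**
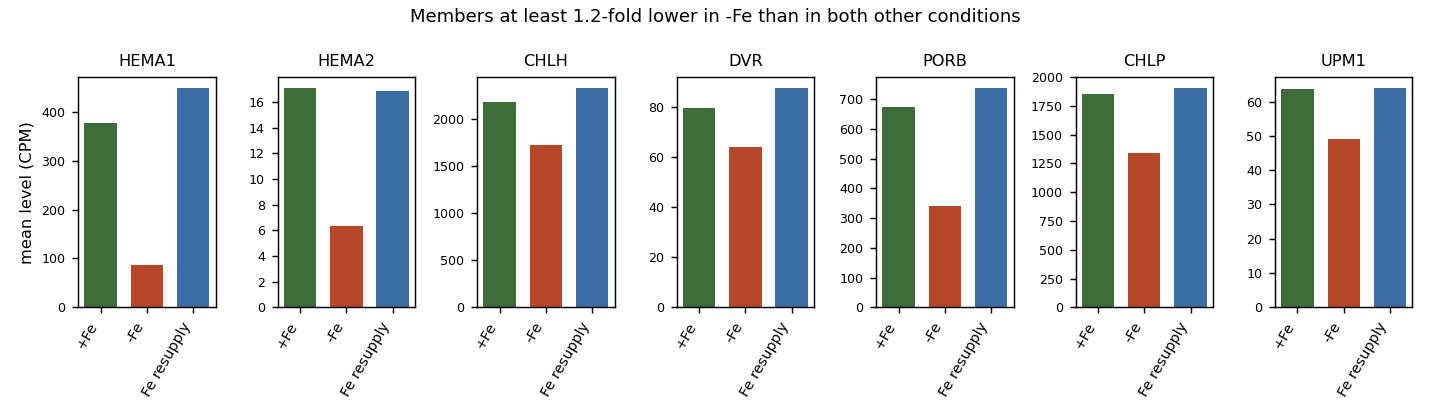
Mean level in CPM of the 7 members at least 1.2-fold lower in -Fe than in both other conditions, as bars from 0 for +Fe, -Fe and Fe resupply; each panel has its own axis and no error bar, since no value per sample was used. The -Fe bar is lowest in every panel, which the rule that chose the members requires. The gap is clearest for HEMA1 (87.2 CPM against 378 and 449), and the resupply bar stands near or above the +Fe bar.

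The medians of the list lay close to those of all genes. The median log2 ratio of the 36 members was 0.08 for -Fe against +Fe (all genes 0.01), 0.04 for resupply against +Fe (all genes -0.05) and 0.06 for -Fe against resupply (all genes 0.06). In -Fe against +Fe, 22 members were above 0 and 14 below, where 7146 of all 14031 compared genes were above and 6885 below. The -Fe condition was the highest of the 3 in 19 members (52.8%, against 40.3% of all genes) and the lowest in 9 (25%, against 31.0%). The +Fe condition was the lowest in 14 members (38.9%, against 26.4% of all genes). Such an order takes no account of size. Some places rest on very small gaps, such as CHLD at 299.7 CPM in -Fe and 299.0 in resupply. The order was not recounted with other settings.

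Of 10 further pathway genes and regulators outside the list, 8 could be compared and none passed 2-fold in any comparison. GLK1, a transcription factor gene that promotes chlorophyll synthesis, was the furthest from +Fe among them and is named for that value. It was at 92.4 CPM in -Fe, 149.6 in +Fe and 128 in resupply, a log2 ratio of -0.69 for -Fe against +Fe, while its partner GLK2 was at 218, 199 and 179 CPM.

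Annotated transcript forms were then compared, since a gene's sum can hide an exchange between forms. Of 79 member transcripts, 53 reached 5 CPM and 7 were at 0 throughout, and 17 members have a single transcript. In -Fe against +Fe, 7 of the 53 (13.2%) differed by at least 2-fold in either direction, where 9.49% of 16528 transcripts did. Between resupply and +Fe it was 4 of 53, against 8.79%, and between -Fe and resupply 9 of 53, against 10.4%. The first and last of these counts include AT1G58290.1 and AT1G09940.1, the single transcripts of HEMA1 and HEMA2. The last also includes AT4G27440.1, which made up all of PORB. Their differences are those of the whole gene and no exchange between forms. Apart from them, the counts lay near the shares of all transcripts. Whether any exchange of forms below follows iron was not tested. The division of reads between forms of a gene is the estimate of the authors' assembler StringTie. Reads shared by forms could be assigned either way.

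Among member forms that reached 5 CPM, those of PORA differed most in opposite directions between -Fe and +Fe. The form AT5G54190.1 was at 33.1 CPM in -Fe, 12.4 in +Fe and 15.9 in resupply, or 85.7%, 39.02% and 44.6% of the gene. The form AT5G54190.2 was at 5.51, 19.3 and 19.7 CPM, with log2 ratios of -1.64 against +Fe and -1.67 against resupply. The second form keeps an intron of 82 bases (chromosome 5, 21992437 to 21992518, minus strand) that the first splices out, and its annotated coding sequence is 855 bases in place of 1218. The gene's sum, 38.7 against 31.7 CPM, shows little of this.

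HEMD showed a smaller exchange between forms. Its form AT2G26540.2 was at 13.3 CPM in -Fe, 6.08 in +Fe and 5.74 in resupply, or 37.2%, 16.7% and 16.7% of the gene. This form keeps an intron of 131 bases (chromosome 2, 11287736 to 11287866, minus strand) that both other forms splice out. The form AT2G26540.1 was at 10.6, 16.6 and 16.3 CPM. The form AT2G26540.3, which keeps a different intron of 117 bases (11288002 to 11288118), was at 11.9, 13.7 and 12.4 CPM, or 33.3%, 37.6% and 36.0% of the gene.

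Forms of HEME1 and PORC differed mainly in resupply. AT3G14930.3 of HEME1 was at 23.4 CPM in -Fe, 48.1 in +Fe and 0 in resupply, while AT3G14930.1 was at 59.4, 47.9 and 98.7 CPM and AT3G14930.2 at 58.9, 59.2 and 79.4. AT1G03630.2 of PORC was at 21.1 CPM in -Fe, 11.1 in +Fe and 0 in resupply, and AT1G03630.1 at 163, 163 and 178. Both levels of 0 were solved below 0 and set to 0, so absence of these forms was not measured directly. The PORC forms differ inside the gene by the start of exon 3, at base 908033 or 908039 of chromosome 1, so their coding sequences of 1206 and 1200 bases differ by 6. The junction is shown because it is where the coding sequences of the forms part. It is chr1:908013-908058 on the plus strand, with the 6 bases present only in AT1G03630.1 in capitals.
PORC junction: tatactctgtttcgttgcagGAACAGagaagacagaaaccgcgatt

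**Figure D4:**
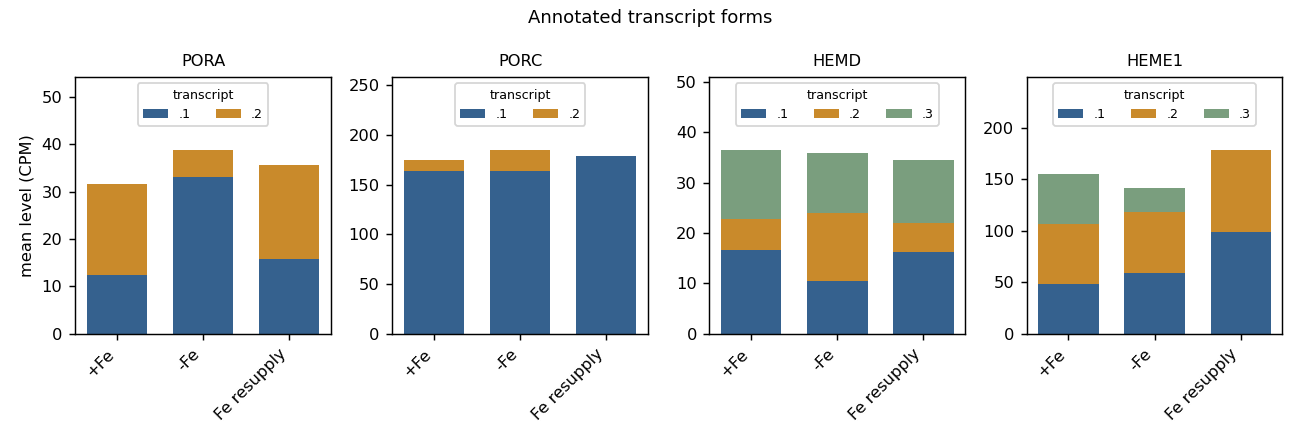
Mean level in CPM of each annotated transcript form, stacked to the gene's sum, for PORA, PORC, HEMD and HEME1 in +Fe, -Fe and Fe resupply. The first form makes up 85.7% of PORA in -Fe against 39.02% in +Fe, and HEMD holds more of its second form in -Fe. The third form of HEME1 and the second of PORC were solved below 0 in resupply and are drawn at 0. The height of each stack differs less.

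Several other forms passed 2-fold in 1 comparison. HO1 form AT2G26670.2 was at 4.14 CPM in -Fe, 10.01 in +Fe and 8.96 in resupply. CAO form AT1G44446.4 was at 41.2, 32.5 and 16.5 CPM, and HEMB1 form AT1G69740.2 at 7.55, 4.78 and 13.6 CPM. In each of these genes another form carried most of the sum.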

How the data were processed

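Paired-end reads were trimmed by the authors with Trimmomatic 0.36.5 and mapped with HISAT2 2.1.0 to TAIR10. Transcripts were quantified with StringTie 1.3.3.2 and conditions compared by the authors with edgeR 3.20.7.2. The deposited average log2 CPM, pooled by the authors over the libraries of 2 conditions, was the only column used from each of 3 tables. The 4 columns of their own comparisons (fold change, F statistic, p-value and adjusted p-value) were not used. The input values, normalization and depth are not stated. The lowest value of each table was subtracted as its prior count, and each condition mean was solved from the 3 pairwise averages in CPM (Python 3.11.15, pandas 2.3.3, numpy 2.4.6). Levels solved below 0 are given as 0. If the prior count was 2, the lowest values imply mean library totals of 1.1249e+06 to 1.1425e+06. Genes under 5 CPM were set aside. The members, lists, motifs and limits were chosen with earlier results of these data known. All 39 members could be named, and the text gives most in full. Promoters, transcript structures and sequences were read from the TAIR10.1 genome and annotation of RefSeq. The tables hold no coordinates.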

Additional observations from a re-analysis of the deposited data

How the results depend on the processing

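Across 10 alternatives, 13 results gave 124 values, of which 12 moved, by over 1.5 times for a count or over 0.046 for a log2 ratio. A change of sign was looked for only in the log2 ratios of PORB, HEMA1 and HEMA2, and none was seen. Those ratios lay far from 0, so this says little about the other results. With 5 CPM added to both sides, 1 member in place of 2 was at least 2-fold lower in -Fe than in +Fe, since HEMA2 came to a log2 ratio of -0.96 and HEMA1 to -2.05. A minimum mean of 20 CPM, which removes HEMA2, also left 1. Both settings left 2 members in place of 3 at least 2-fold lower in -Fe than in resupply. HEMA2 was at -1.36 with 0.5 CPM added and at -1.12 without the subtraction of the lowest value. With the most abundant transcript only, 1 member was at least 2-fold higher in each comparison, a form of PORA for -Fe against +Fe and against resupply and a form of HEME1 for resupply against +Fe. At a limit of 1.5-fold, 1 member was lower in resupply than in +Fe, and 3 in place of 7 were lower in -Fe than in both other conditions. Aligning the tables on transcripts seen in 1 condition, an alternative chosen after seeing the data, gave HEMA1 -2.18 and put PORB at -1.02, past the 2-fold limit, so that 3 members were lower than in +Fe. The count was also 3 with no minimum level, which adds HEMA3. Such transcripts showed scale offsets between tables of 0.0048 to 0.029 on the log2 scale. No paired analysis was possible because the deposited averages hold no value per replicate, and for the same reason no replicate could be left out. Depth and replicate spread are unknown, so differences under 1.5-fold and levels near 5 CPM are the least certain.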
